A study of Mus musculus with 8 samples.

Results

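The estrogen-related receptors and the coregulators of the PGC-1 pathway were examined as targets of ERRα itself, through the genes *Esrra*, *Esrrb* and *Esrrg*, *Ppargc1a*, *Ppargc1b* and *Pprc1*, *Perm1*, *Nrip1* and *Ncor1*. Their ERRα ChIP-seq peaks were all intervals to which the authors' annotation gave 1 of these 9 gene names, at any distance from the transcription start site (TSS). They numbered 171 of 126927 intervals, and the 9 genes were among 19188 named in at least 1 list. The mice were C57BL/6N males of 2 to 3 months, either WT or ERRα3SA, a whole-body knock-in in which serines of the ERRα amino terminus are replaced by alanine, and tissues were taken at zeitgeber time 9. Skeletal muscle (gastrocnemius and soleus) was pooled from 5 mice per genotype and liver from 2, so that each genotype and tissue gave 1 ChIP library and 1 peak list, with no replicate and no test between lists. The muscle lists therefore came from pooled tissue of mixed fibre types, and the substitution is carried by all tissues of the mutant, not by muscle or liver alone.

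ERRα, ERRβ and ERRγ are orphan nuclear receptors that bind the ERR response element (ERRE), an extended half-site with the letters TCAAGGTCA, as monomers or dimers. They lack a known natural hormone and depend on coactivators for their activity. PGC-1α, PGC-1β and PRC, encoded by *Ppargc1a*, *Ppargc1b* and *Pprc1*, are such coactivators and drive mitochondrial gene expression in muscle and liver, PERM1 is a muscle regulator that acts downstream of PGC-1 and ERRs, and RIP140 (*Nrip1*) and NCoR1 are corepressors of nuclear receptors. A peak at one of these genes is thus a candidate for self-regulation or cross-regulation within the pathway, although a peak alone does not show a change of expression.

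A peak was annotated to 8 of the 9 genes in WT muscle, 8 in 3SA muscle, 6 in WT liver and 7 in 3SA liver. Among all genes named in any list the corresponding shares were 61.6%, 80.5%, 56.4% and 64.8%, so a gene name in a list was common by this annotation. *Ncor1* was without a peak in both muscle lists, *Pprc1* and *Perm1* in both liver lists, and *Ppargc1a* in WT liver only. The 9 genes held 41 peaks in WT muscle, 59 in 3SA muscle, 28 in WT liver and 43 in 3SA liver, from lists of 25427, 50647, 21813 and 29040 peaks. When the 3SA muscle list was cut by score to the length of the WT list, 36 of its 59 peaks at these genes remained. Ties at the cut score were kept in list order, so the 36 depend in part on that order. The lists hold no read numbers, so the depth behind a peak is unknown, and peaks were ranked by the authors' score within their own list, with ties given the best rank. The lowest score, 30, was shared by 33.6% of the WT and 35.2% of the 3SA muscle peaks but by 0.0688% and 0.461% of the liver peaks. Above it lay 27 of the 41 WT muscle peaks and 40 of the 59 3SA muscle peaks of these genes.

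**Figure D1:**
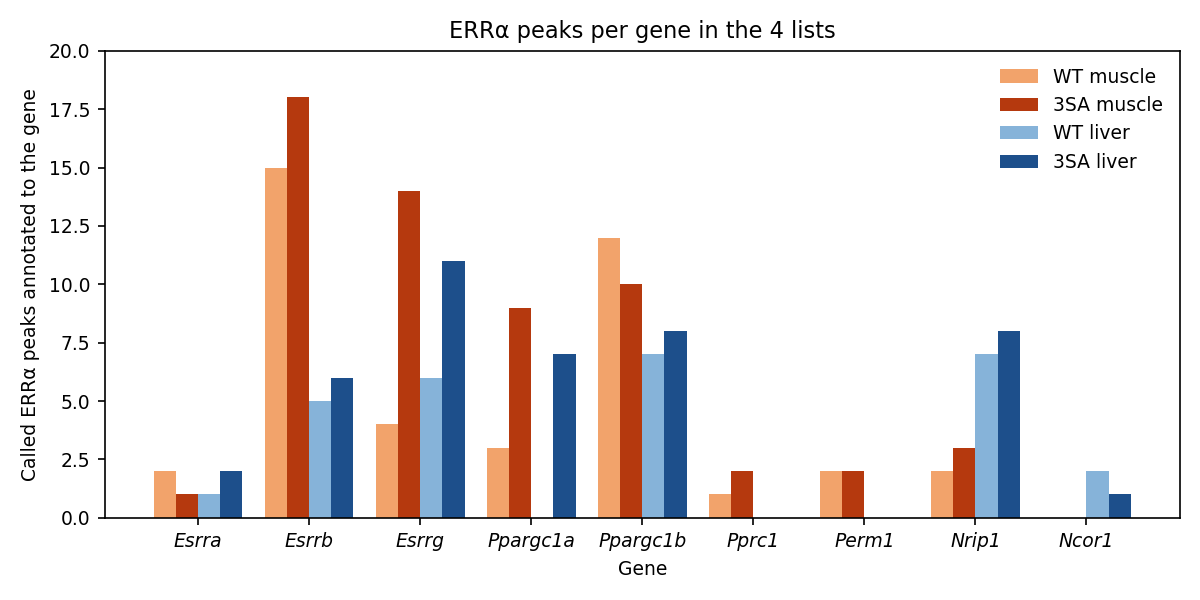
Number of called ERRα peaks annotated to each of the 9 genes (bars, linear axis from 0) in WT muscle, 3SA muscle, WT liver and 3SA liver, 1 list each. *Esrrb* has the most peaks in both muscle lists, with 15 and 18, and *Ncor1* has none there.

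*Esrra*, the gene of ERRα itself, had one of the strongest peaks of every list at its own start. The promoter interval ranked 8 in WT muscle (chr19:6921384-6923762), 6 in 3SA muscle (chr19:6919626-6923726), 5 in WT liver (chr19:6921443-6923407) and 3 in 3SA liver (chr19:6920988-6923657), on mm10. These ranks put it in the top 0.0315%, 0.0118%, 0.0229% and 0.0103% of the lists. In each of the 4 lists it was the best-ranked peak of any of the 9 genes, and all 4 intervals covered the annotated TSS. The intervals were 2379, 4101, 1965 and 2670 bp wide, against list medians of 435, 420, 411 and 413 bp. Their centres lay at -765, 132, -617 and -514 bp from the TSS, and sharing was counted where centres lay within 300 bp. By that rule the liver intervals of both genotypes were shared, as were the WT intervals of both tissues, whereas the 3SA muscle interval had no partner. The 3SA muscle interval ran across a stretch that WT muscle resolved into the promoter interval and another over exon 2 (chr19:6920019-6920501, rank 27). The authors' annotation placed the centre of the 3SA interval at the end of a neighbouring gene, so that it was not counted as promoter although it contained the TSS. In 3SA liver a further interval in intron 2 (chr19:6919425-6920315) ranked 7820.

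An ERRE lay inside the *Esrra* promoter interval of all 4 lists, at chr19:6922337-6922345 on the plus strand, -297 bp from the RefSeq start of this minus-strand gene. It fell within the central 300 bp of both liver intervals and outside that window in both muscle intervals. The surrounding 129 bases, chr19:6922277-6922405, are shown because they carry the element under the highest-ranked peak of the family. They are given on the plus strand, 5′ to 3′, with the core letters AGGTCA in capitals, and hold 2 such cores in the same orientation, the one nearer the 5′ end within the ERRE.
Esrra promoter: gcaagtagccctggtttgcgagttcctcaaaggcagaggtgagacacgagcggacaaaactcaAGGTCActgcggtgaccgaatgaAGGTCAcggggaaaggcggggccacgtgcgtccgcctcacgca
Another ERRE lay in the gene at chr19:6919741-6919749 on the minus strand, inside the wide 3SA muscle interval and inside the intronic 3SA liver interval. It is shown with 10 bases on either side on its own strand, with all 9 letters of the element in capitals.
Esrra intron: catcagagatTCAAGGTCAtcattgacta

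Muscle held more strong intervals over the *Esrra* gene than its name in the lists counts. Within the gene, which RefSeq places at chr19:6910977-6922048, 2 intervals per muscle list were annotated to the microRNA gene *Mir6990*. Those at chr19:6911468-6912885 and chr19:6913361-6914196 ranked 18 and 124 in WT muscle. Those at chr19:6911754-6912885 and chr19:6913820-6914464 ranked 88 and 288 in 3SA muscle. In liver, the intervals named for other genes and overlapping *Esrra* came to 1, which carried the name *Trmt112* in WT liver at rank 16370. The 3′ end of the gene thus carried high-ranked intervals in both muscle lists, and 1 interval of low rank in WT liver. Within 100 kb of the RefSeq start of *Esrra* there were 20, 22, 9 and 14 intervals in the 4 lists, where the 95th percentile over 21770 protein-coding genes was 12, 20, 10 and 14.

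*Esrrg* encodes ERRγ, the isoform most closely tied to oxidative muscle. Its leading site was in an intron at 60.7 kb from the TSS (chr1:187669159-187670579 over the 4 lists), and it was found in all 4 lists. It ranked 519 in WT muscle, 224 in 3SA muscle, 205 in WT liver and 390 in 3SA liver, the top 2.04%, 0.442%, 0.94% and 1.34%. The rank was better in 3SA than in WT muscle and worse in 3SA than in WT liver, with no test of either difference. This was the only *Esrrg* peak in the top 5% of any list. An ERRE at chr1:187669757-187669765 lay inside all 4 intervals, and in the 129 bases around it (chr1:187669697-187669825, plus strand) a further AGGTCA core precedes that of the element.
Esrrg intron: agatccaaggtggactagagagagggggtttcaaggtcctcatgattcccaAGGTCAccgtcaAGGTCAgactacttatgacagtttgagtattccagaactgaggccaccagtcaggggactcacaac
The gene had 4 peaks in WT muscle, 14 in 3SA muscle, 6 in WT liver and 11 in 3SA liver, at 27 loci in all, where overlapping intervals were joined into one locus. Of these loci 21 were found in a single list and 5 in a pair of lists. Over the whole genome 81094 of 99244 loci were in a single list and 12042 in a pair. At the *Esrrg* start itself, promoter intervals ranked 6260 in WT muscle and 23394 in 3SA liver, the top 24.6% and 80.6%. The other lists had no promoter interval there. 3SA muscle had an interval classed as intron with its centre at 792 bp (chr1:187609288-187610308), in the top 38.7%. An intron site at 148 kb was in both liver lists only, in the top 28.5% of WT and 10.4% of 3SA liver. A liver site at 154 kb held an ERRE inside the 3SA interval but not inside the WT interval. Of the 14 peaks in 3SA muscle 1 had a partner in WT muscle, where 10.1% of all 3SA muscle peaks had one. Of the 6 WT liver peaks 4 had a partner in 3SA liver, where 42.9% of all WT liver peaks had one.

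*Esrrb* encodes ERRβ, best known for its role in pluripotent cells and the placenta. It had the most peaks of the 9 genes in muscle, 15 in WT and 18 in 3SA, but none of them reached the top 5%. In WT muscle 7 and in 3SA muscle 9 of them had the lowest score of the list. In liver it had 5 peaks in WT and 6 in 3SA. Its 34 loci included 29 that were found in a single list, and 2 that were found in all 4. Of the 99244 loci of the genome 81094 were in a single list and 2556 in all 4. The locus in all 4 lists at 98.1 kb overlapped the 3′ untranslated region (chr12:86519300-86520301) and lay in the top 7.1%, 8.67%, 25.3% and 65%. The other one, in an intron at 80.3 kb (chr12:86501618-86502278), lay in the top 66.4% of WT and 11% of 3SA muscle, and in the top 45.2% of WT and 65% of 3SA liver. Its WT muscle interval had the lowest score of that list. A site in the first intron at 4.45 kb (chr12:86365144-86366264) was called in every list but WT muscle. It ranked 2967 in 3SA muscle, 1236 in WT liver and 3657 in 3SA liver, or in the top 5.86%, 5.67% and 12.6%. Each of these 3 loci contained at least 1 ERRE. At 4.45 kb the element is followed by a further core, as the bases chr12:86365530-86365658 on the plus strand show.
Esrrb intron 4.45 kb: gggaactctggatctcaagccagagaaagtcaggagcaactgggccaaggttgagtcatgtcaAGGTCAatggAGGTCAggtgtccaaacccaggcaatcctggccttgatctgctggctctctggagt
Single elements of the 2 loci present in all lists are given with 10 bases on either side, with the 9 letters of the ERRE in capitals. They are at chr12:86502059-86502067 and chr12:86519843-86519851, both on the plus strand.
Esrrb intron 80.3 kb: catccctgctTCAAGGTCAactgaaaagc
Esrrb 98.1 kb: tgagggactcTCAAGGTCAgtagcttagg

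*Perm1*, the muscle regulator, had intervals over the TSS used in the lists in muscle only. An interval that covered the annotated TSS ranked 844 in WT muscle (chr4:156215641-156217401) and 999 in 3SA muscle (chr4:156215887-156218198), the top 3.32% and 1.97%. Both were wide, at 1761 and 2312 bp, and they overlapped, but their centres were 521.5 bp apart and did not count as shared under the 300 bp rule. Neither was annotated as promoter, since the centres lay at 594 and 1115 bp in intron 1 and exon 2. No liver interval carried the name *Perm1*. RefSeq extends the gene to a start farther upstream (chr4:156203262-156221307). In 3SA liver 3 intervals overlapped this span or its 20 kb surroundings under other names, in the top 65% to 80.6%, and one of them, chr4:156203770-156204157, lay close to the RefSeq start. In WT liver there were none. No ERRE was found in the whole of the muscle locus, which instead held 5 copies of AAGGTCA, the ERRE without its first pair of letters. Of these copies, the pair in the bases chr4:156216383-156216509 points in opposite directions.
Perm1 intron: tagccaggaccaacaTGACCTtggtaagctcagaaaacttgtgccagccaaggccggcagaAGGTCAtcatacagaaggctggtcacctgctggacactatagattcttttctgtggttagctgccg
The capitals mark AGGTCA on the plus strand and its reverse complement TGACCT where the core lies on the minus strand.

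*Ppargc1a*, the gene of PGC-1α, had no peak in the top 5% of a list within 20 kb of an annotated TSS. The best was far downstream, at 513 kb from the TSS in intergenic sequence (chr5:51040489-51041398). It ranked 430 in WT muscle, 928 in 3SA muscle and 7820 in 3SA liver, the top 1.69%, 1.83% and 26.9%, and it was absent from WT liver. At this distance the name rests on the nearest start alone. Inside the RefSeq span of the gene, given below, a site at -24.1 kb (chr5:51591583-51592082) was found in 3 lists. It was in the top 66.4% of WT muscle, 8.67% of 3SA muscle and 38.6% of 3SA liver, with the lowest score of the list in WT muscle. The -24.1 kb was counted from a different annotated TSS than the 59 and 8312 bp that follow. WT muscle had a promoter interval at 59 bp (chr5:51553681-51554044) with the lowest score of its list. 3SA muscle had an intron interval at 8312 bp (chr5:51545371-51545847) in the top 23.7%. These were the only peaks of the gene within 20 kb of an annotated TSS, 1 per muscle list, and neither had a counterpart in the other genotype. *Ppargc1a* had 3 peaks in WT muscle, 9 in 3SA muscle and 7 in 3SA liver, where genes with a peak had a median of 1, 2 and 2 and a 95th percentile of 6, 10 and 6. Its 14 loci held no ERRE, and 11 of them were found in a single list, beside 81094 of 99244 loci of the genome. RefSeq places the gene at chr5:51454249-52115853, with a start far upstream of those the lists used, and further intervals overlapping this span were named *Mir6417*. There were 2 in WT muscle (both in the top 24.6%), 4 in 3SA muscle, 1 in WT liver (top 74.4%) and 1 in 3SA liver (top 44.8%). Of those in 3SA muscle, the interval at chr5:52113671-52114313 was in the top 11%, and that at chr5:52115694-52116641, which covered the RefSeq start, had the lowest score of its list, as did the other two. The distal locus held a single AGGTCA core and no AAGGTCA. It is shown because it carries the best-ranked peak of the gene without the element, from chr5:51040915-51041040 on the plus strand.
Ppargc1a distal: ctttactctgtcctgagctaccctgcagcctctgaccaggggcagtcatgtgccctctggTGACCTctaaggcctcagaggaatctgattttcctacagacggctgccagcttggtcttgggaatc
The single core is on the minus strand.

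*Nrip1* encodes RIP140, a corepressor that opposes oxidative metabolism, and its peaks were mostly in liver. It had 2 peaks in WT muscle, 3 in 3SA muscle, 7 in WT liver and 8 in 3SA liver. Of the liver peaks 6 in each genotype had a partner in the other, beside 42.9% of all WT and 32.2% of all 3SA liver peaks. The leading pair of sites was in an intron. The site at 53.1 kb (chr16:76319656-76320327) was in liver only, in the top 13.6% of WT and 5.99% of 3SA. The site at 51.3 kb (chr16:76321522-76322010) was in the top 16% of WT liver, 7.48% of 3SA liver and 5.37% of 3SA muscle and absent from WT muscle. Another site, intergenic at -300 kb (chr16:76672889-76673484), was in the top 16% of WT and 11.1% of 3SA liver. The sites at 51.3 and -300 kb each held an ERRE within the central 300 bp of every interval called there, and the site at 53.1 kb held an AAGGTCA. In muscle, a promoter interval in WT (chr16:76372389-76373746, -18 bp) ranked 10219, and an intergenic site at -60.4 kb was in both genotypes, in the top 16% and 23.7%.

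*Ncor1*, a corepressor of nuclear receptors that restrains oxidative gene expression in muscle, was annotated with peaks in liver only. A site in an intron at 21.9 kb (chr11:62416347-62416804) was in both liver lists, in the top 44.3% of WT and 24.9% of 3SA. Another at 9.43 kb (chr11:62428833-62429333) was in WT liver only, in the top 13.6%. Both held an ERRE in the central 300 bp. The WT liver intervals at both sites were centred in a SINE repeat, the 3SA interval at 21.9 kb was not. Of all WT liver peaks 32% were centred in a repeat. 3SA muscle had 2 intervals within 20 kb of the gene under the names of its neighbours *Ttc19* and *Pigl*, and WT muscle had none. The one named *Pigl* (chr11:62458366-62458811), in the top 23.7%, lay just upstream of the RefSeq start of *Ncor1* (chr11:62457414). In WT liver an interval named *Ttc19* lay inside the gene, in the top 75%. The ERREs of both corepressors are shown on their own strand with 10 bases on either side, since each of these sites held the element in the central 300 bp of every interval called there. They lie at chr16:76321769-76321777 (minus), chr16:76673054-76673062 (minus), chr11:62416449-62416457 (plus) and chr11:62428946-62428954 (plus).
Nrip1 intron: ctgatgcagcTCAAGGTCActctaacccg
Nrip1 distal: gctttgtcacTCAAGGTCAtgccgacctt
Ncor1 intron 21.9 kb: ctctgtgagtTCAAGGTCAacctaagtct
Ncor1 intron 9.43 kb: ctctttgagtTCAAGGTCAgtctggtcaa

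*Ppargc1b*, the gene of PGC-1β, lay in a region dense in intervals and had its strongest site upstream. The intergenic site at -16.3 kb (chr18:61416198-61417195) was in all 4 lists and ranked 486 in WT muscle, 218 in 3SA muscle, 12528 in WT liver and 3915 in 3SA liver. These ranks were the top 1.91%, 0.43%, 57.4% and 13.5%, so that the site was high in both muscle lists and not in liver. An intron site at 79.6 kb (chr18:61319814-61321381) was also in all 4 lists, in the top 40.2%, 11%, 57.4% and 38.6%. Both loci held 1 ERRE, and so did 2 of the other 21 loci of the gene. *Ppargc1b* had 12, 10, 7 and 8 peaks in the 4 lists, none of them annotated as promoter. A liver site at -1.27 kb was the nearest to the start, in the top 99.5% of WT and 51.9% of 3SA. Of its 23 loci 13 were found in a single list, beside 81094 of 99244 loci of the genome. Within 100 kb of its RefSeq start there were 17 intervals in WT and 17 in 3SA muscle, and 8 in WT and 10 in 3SA liver. The 95th percentile over protein-coding genes, 12 in WT muscle, was passed in that list and not in the other three.

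*Pprc1*, the gene of the coactivator PRC, had the lowest best rank in muscle among the 8 genes with any peak there. Its peaks were 1 in WT muscle (chr19:46063182-46063596, rank 10219) and 2 in 3SA muscle (both at rank 19604), the top 40.2% and 38.7%. None of them overlapped between genotypes or held an ERRE, and the liver lists had no peak under its name.

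**Figure D2:**
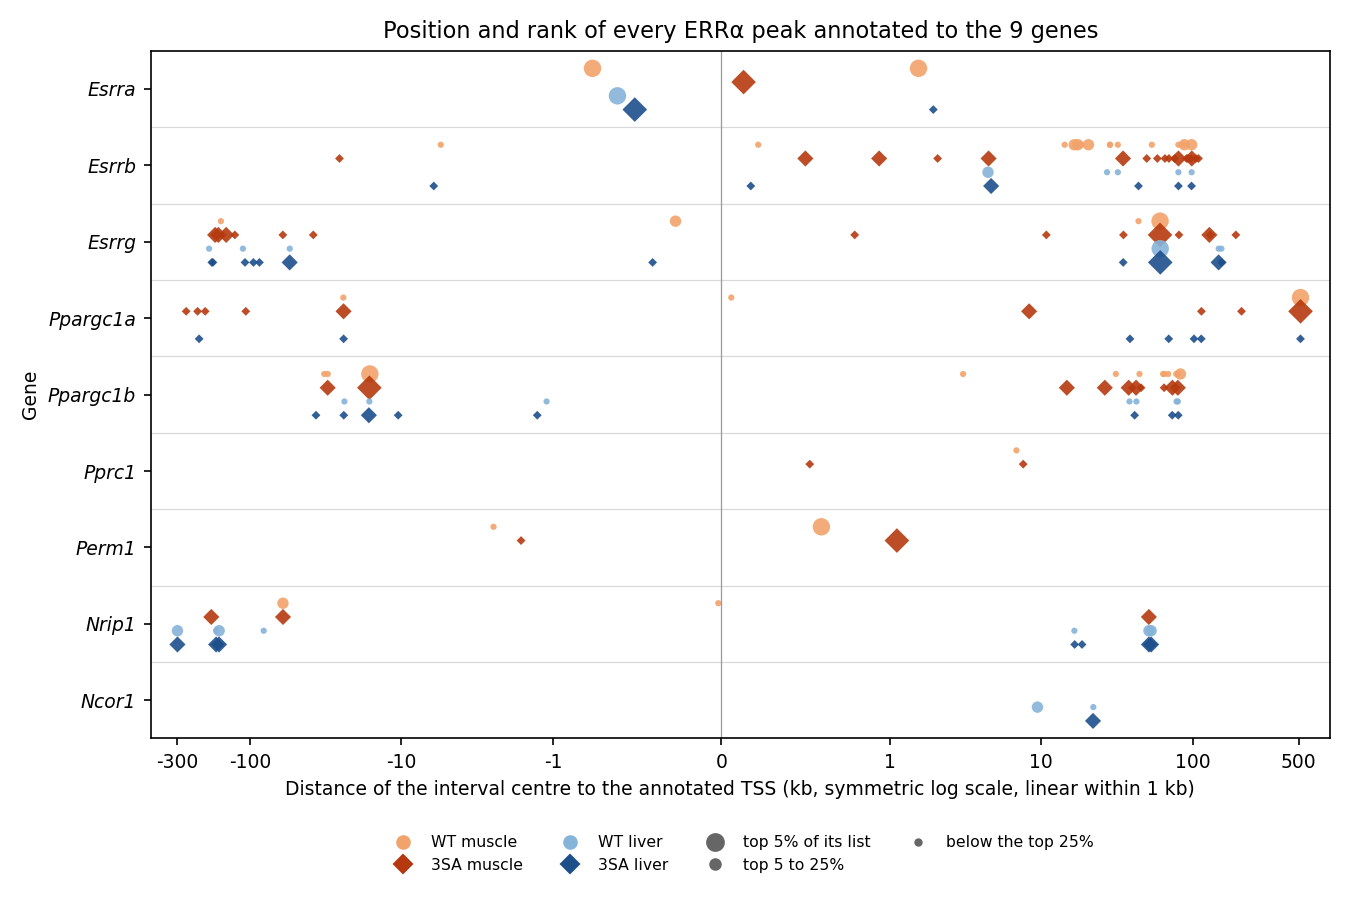
Distance of each interval centre to the annotated TSS (horizontal axis, kb, symmetric log scale) for every peak of the 9 genes, in WT (circles) and 3SA (diamonds) muscle and liver, with larger marks for better ranks in the own list. Large marks lie near the start for *Esrra* and *Perm1*, and at 60.7 kb for *Esrrg*, -16.3 kb for *Ppargc1b* and 513 kb for *Ppargc1a*.

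By best rank, 5 of the 9 genes reached the top 5% in WT muscle and 5 in 3SA muscle, beside 5.76% and 10.9% of all genes named in any list, and they were *Esrra*, *Esrrg*, *Ppargc1a*, *Ppargc1b* and *Perm1* in both. In each liver list 2 genes did, *Esrra* and *Esrrg*, beside 5.29% of all named genes in WT and 6.88% in 3SA liver. Genes with many peaks have more chances to reach such a rank, and the part of peak number in these counts was not tested. The order was *Esrra*, *Ppargc1a*, *Ppargc1b*, *Esrrg*, *Perm1* in WT muscle and *Esrra*, *Ppargc1b*, *Esrrg*, *Ppargc1a*, *Perm1* in 3SA muscle. Without replicates, whether neighbours in these orders differ cannot be told. When only peaks within 20 kb of a TSS were used, 3 genes in each muscle list and 1 in each liver list were left in the top 5%.

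**Figure D3:**
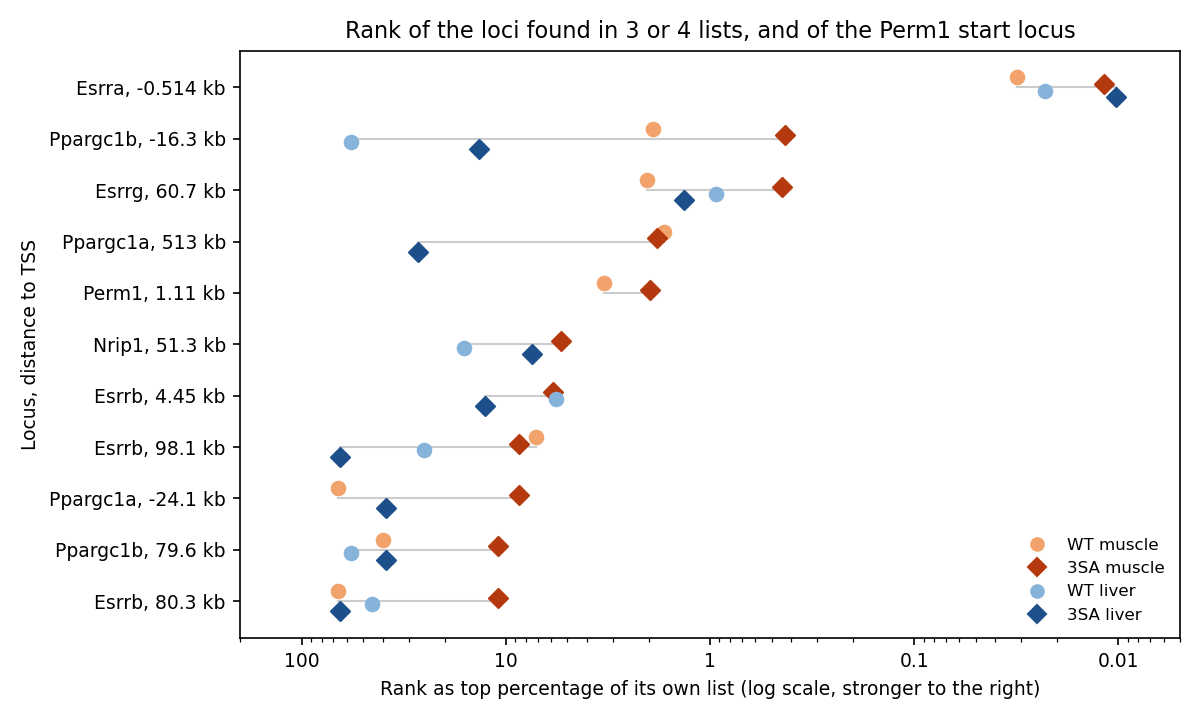
Rank as top percentage of the own list (log scale, stronger to the right) of the 10 loci found in at least 3 lists and of the *Perm1* start locus, found in 2. Points are single libraries, and grey lines span the lists. *Esrra* lies apart at 0.0103% to 0.0315%, and the *Ppargc1b* site at -16.3 kb spans 0.43% to 57.4%.

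A smaller share of the peaks of the 9 genes than of all peaks lay near a start in each list, a difference without a test. Within 20 kb of a TSS were 16 of 41 in WT muscle, 14 of 59 in 3SA muscle, 6 of 28 in WT liver and 11 of 43 in 3SA liver, whereas 51.1%, 46.5%, 51.4% and 55.5% of all peaks were. As promoter were annotated 4, 0, 1 and 2 of them, beside 6.06%, 3.81%, 5.64% and 6.63% of all peaks. The 4 in WT muscle belonged to *Esrra*, *Esrrg*, *Ppargc1a* and *Nrip1*. By intervals that cover the TSS, which does not depend on where the centre falls, the counts were 5, 2, 1 and 2, beside 5.83%, 3.54%, 4.06% and 4.86% of all peaks. The pair in 3SA muscle comprised the wide *Esrra* and *Perm1* intervals, whose centres lay outside the promoter class. At the *Esrrg*, *Ppargc1a* and *Nrip1* promoter intervals of WT muscle, 3SA muscle had no overlapping interval, although an *Esrrg* intron interval was centred at 792 bp. The scores of these promoter intervals were low, at 42, 30 and 36. Of all WT muscle peaks with a score of 30-49, 13.4% had a 3SA muscle centre within 300 bp.

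Sharing between genotypes was counted where interval centres lay within 300 bp. A partner in the other genotype was found for 11 of 41 WT muscle peaks (26.8%), 11 of 59 3SA muscle peaks (18.6%), 18 of 28 WT liver peaks (64.3%) and 18 of 43 3SA liver peaks (41.9%). Over all peaks the shares were 20.2%, 10.1%, 42.9% and 32.2%. In muscle the 11 included the leading sites of *Esrrg*, *Ppargc1a* and *Ppargc1b* but not those of *Esrra* and *Perm1*, which overlapped without passing the rule. Among peaks with a score of at least 100, 3 of 6 in WT muscle, 3 of 5 in 3SA muscle, 6 of 7 in WT liver and 11 of 11 in 3SA liver had a partner at any score, beside 82.5%, 68.2%, 87.7% and 82% of all peaks with such a score. A partner in the other tissue of the same genotype was found for 7 WT muscle, 10 3SA muscle, 7 WT liver and 10 3SA liver peaks, beside 11.7%, 11.5%, 13.6% and 20.1% of all peaks.

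The ERRE, searched as TCAAGGTCA on both strands in the 300 bp around each centre, was in 3 of 41 WT muscle peaks, 8 of 59 3SA muscle peaks, 12 of 28 WT liver peaks and 9 of 43 3SA liver peaks. These shares, 7.32%, 13.6%, 42.9% and 20.9%, stood beside 3.92%, 4.28%, 14.6% and 15.2% over all peaks. In the whole interval the element was in 7 WT muscle, 9 3SA muscle, 14 WT liver and 14 3SA liver peaks, the *Esrra* promoter interval of WT muscle among them. The whole-interval share over all peaks was not counted, so these counts have no background. The shorter AAGGTCA, which every ERRE contains, was in 10, 18, 17 and 16 peaks, beside 12.9%, 14%, 34.2% and 36.4% of all peaks. A centre in an annotated repeat was found for 4, 9, 5 and 8 peaks, beside 25.7%, 28.6%, 32% and 27.5%. In the RefSeq promoter windows of the family, 300 bases that span each start, the ERRE was found in none of the 14 windows available, where 139 of 32851 windows (0.423%) hold it. The *Esrra* element lies before that window.

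**Figure D4:**
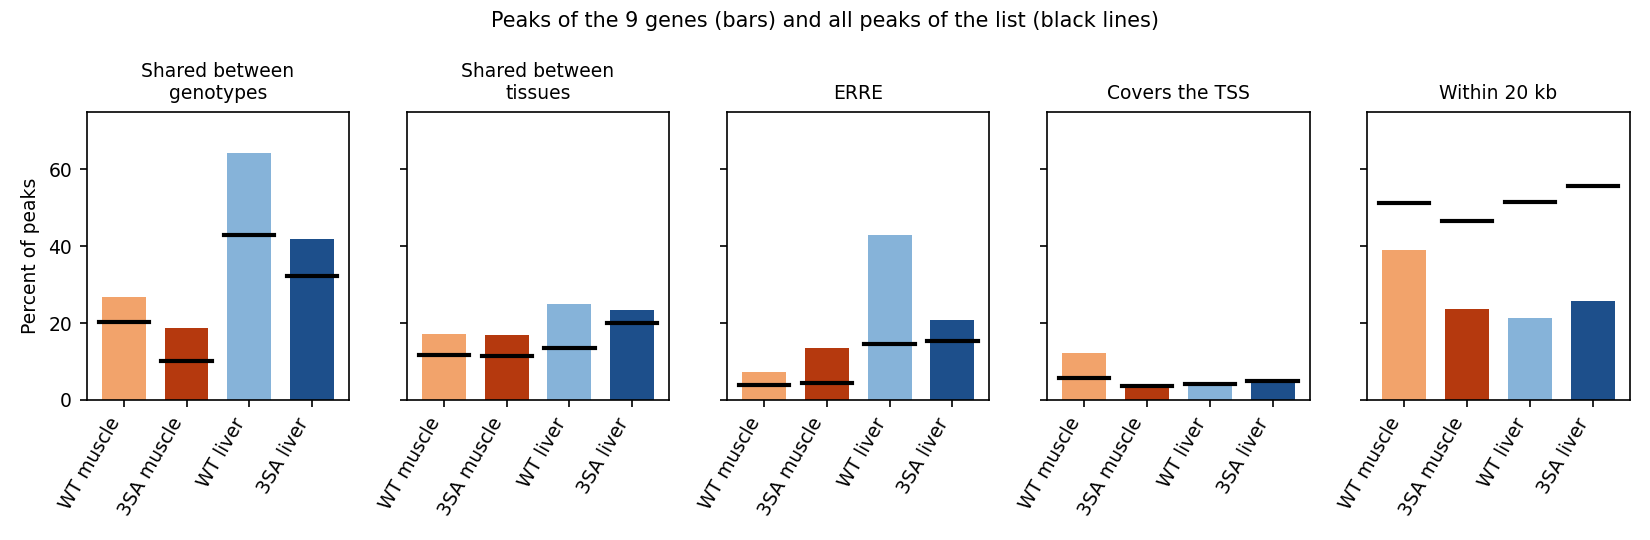
Percent of the peaks of the 9 genes (bars) and of all peaks of the same list (black lines) that are shared between genotypes, shared between tissues, hold the ERRE, cover the TSS or lie within 20 kb of it. WT liver has the largest bars for sharing between genotypes (64.3%) and the ERRE (42.9%), and all 4 bars for distance lie under their lines.

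Joined over the 4 lists, the peaks of the 9 genes formed 119 loci. Of these, 34 were found in at least 2 lists (28.6%), 10 in at least 3 (8.4%) and 6 in all 4 (5.04%), whereas the shares over 99244 loci of the genome were 18.3%, 6.15% and 2.58%. The 6 belonged to *Esrra*, *Esrrg*, *Esrrb* and *Ppargc1b*. The most frequent patterns were 3SA muscle alone with 39 loci, WT muscle alone with 24, 3SA liver alone with 17 and both liver lists with 11. The element followed the number of lists, being in 5 of 85 loci of a single list, 5 of 24 in a pair, 2 of 4 in 3 lists and 6 of 6 in all 4. Over the whole genome these shares were 4.5%, 21.4%, 34.7% and 35.7%. Wider joined loci offer more sequence for a match, and the part of width in these counts was not tested.

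Of 12 further nuclear receptor coregulators that are not in the family, 8 had a peak in WT muscle, 9 in 3SA muscle, 9 in WT liver and 9 in 3SA liver. Among all genes named in any list 61.6%, 80.5%, 56.4% and 64.8% had one. The best peak of these coregulators reached the top 5% for 3 of them in WT muscle, 4 in 3SA muscle, 3 in WT liver and 3 in 3SA liver. Among all named genes 5.76%, 10.9%, 5.29% and 6.88% did. Of the 9 genes above 5, 5, 2 and 2 did, but that set includes receptor genes. Both in liver were the receptor genes *Esrra* and *Esrrg*, which were also among the 5 in each muscle list. No promoter peak of the 12 further coregulators was in the top 5% of a list.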

How the data were processed

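ERRα ChIP-seq peak lists of WT and ERRα3SA skeletal muscle and liver were used, and the 4 input samples, which hold no values here, were not analysed. Immunoprecipitations were pooled before sequencing, 3 according to the labels and 4 according to the study's methods. Reads had been trimmed (Trimmomatic 0.36), aligned by the authors to the mm10 genome (BWA-MEM 0.7.12) and freed of duplicates (Picard 2.0.1), and peaks had been called over input (MACS2 2.1.1.20160309) and annotated (HOMER 4.9.1). The peak caller's score was deposited as whole numbers, on a scale not given in the sources used here, and was used only for ranks and filters within a list. The methods describe peaks of fixed width around a summit, whereas the deposited intervals vary in width and list no summit, so sharing and motif windows rest on interval centres, which may not be summits. GC and CpG contents were deposited as a fraction of the interval, and GC was recomputed to check that the lists and GRCm38 patch 6 have the same coordinates. It matched within 0.005 for 25427, 50646, 21811 and 29038 intervals of the 4 lists.

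Positions are 1-based. Intervals of different lists were joined into 1 locus when they shared at least 1 base. Gene spans, exons and promoter windows came from RefSeq on GRCm38 patch 6, whose promoter table had an entry for 8 of the 9 genes. All 9 genes were named. Intervals were described when best-ranked in a list, at a promoter, with the ERRE or present in several lists. The intervals under other names at *Esrra*, *Perm1*, *Ppargc1a* and *Ncor1*, and the 3SA muscle interval near the *Esrrg* start, were added after their values were seen. Genes and lists were chosen with earlier results of these data known. Alternatives concerned the distance, score, list length, gene assignment, sharing rule, motif, window and ties, and those for the AAGGTCA motif, cover of the TSS and the lowest score were chosen after seeing the data. Overlap and motif search were tested on simulated data. Peak lists hold no expression values, so tissue labels were not checked against marker genes. Python 3.11.15 with pandas 2.3.3, numpy 2.4.6, pysam 0.24.0 and matplotlib 3.10.9 was used, with samtools 1.23.1.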

Additional observations from a re-analysis of the deposited data

Results flagged for a closer look

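Some measures differed between genotypes in one direction in muscle and in the other in liver. Each side is the difference of 1 library from 1 library, and whether the tissues differ was not tested. 3SA minus WT, the number of *Esrra* peaks differed by -1 in muscle and 1 in liver, and that of *Ppargc1b* peaks by -2 and 1. The share of the peaks of the 9 genes within 20 kb of a TSS differed by -15.3 percentage points in muscle and 4.2 in liver. The share annotated as promoter differed by -9.76 and 1.08 points, and the share that covered the TSS by -8.81 and 1.08 points. All peaks of the lists differed in the same directions. In WT and 3SA muscle, 51.1% and 46.5% of all peaks were within 20 kb, 6.06% and 3.81% were promoter, and 5.83% and 3.54% covered the TSS. In WT and 3SA liver these shares were 51.4% and 55.5%, 5.64% and 6.63%, and 4.06% and 4.86%.

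The share of peaks with the ERRE differed by 6.28 points in muscle (7.32% in WT, 13.6% in 3SA) and by -22 points in liver (42.9% and 20.9%). Over the whole interval in place of the central 300 bp, the difference in muscle was -1.82 points (17.1% in WT, 15.3% in 3SA) and that in liver -17.4 points (50% and 32.6%), so the opposite directions were lost. For AAGGTCA in the central 300 bp the differences were 6.1 points in muscle and -23.5 points in liver. Single loci of these genes also differed in opposite directions in the tissues by rank. The top percentage of the *Esrrb* site at 80.3 kb differed by -55.4 points in muscle, where 3SA ranked it better, and by 19.8 points in liver. Its WT muscle interval had the lowest score, shared by 33.6% of that list, and its 66.4% is the best rank of that tie. The top percentage of the *Esrrg* site at 60.7 kb differed by -1.6 points in muscle and 0.4 points in liver. In a longer list the same rank gives a smaller top percentage, and the muscle lists differ most in length.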

How the results depend on the processing

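No paired analysis was possible because each genotype and tissue has 1 library and the labels give no replicate numbers. Of 112 alternative values of the counts, 66 stayed within 1.5 times the reported count and 46 did not, and the cause was not tested beyond what each rule leaves out. Values follow the order WT muscle, 3SA muscle, WT liver, 3SA liver.

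With a score of at least 100, 5 and 5 of the 9 genes kept a peak in WT and 3SA muscle, with 6, 5, 7 and 11 peaks, the ERRE was in 1, 2, 6 and 4 of them, and 3, 4 and 4 of the other coregulators had a peak in the lists other than 3SA liver. With that score in both lists, 3, 3, 6 and 6 peaks were shared between genotypes and 2 in each list between tissues. With centres within 100 bp, 7, 7, 11 and 11 were shared between genotypes and 3 in each list between tissues. Within 20 kb of a TSS lay 16, 14, 6 and 11 peaks, and 3, 3, 1 and 1 genes were in the top 5%. Lists of equal length left 36 peaks in 3SA muscle, with ties at the cut score kept in list order. Scores above the lowest left 27 peaks in WT muscle. Promoter peaks in 3SA muscle came to 5 by a centre within 1000 bp of the TSS and 2 by cover of the TSS. The ERRE was in 7 WT muscle and 14 3SA liver peaks over the whole interval, which reversed the sign of the genotype difference in its share in muscle. AAGGTCA was in 10 WT muscle, 18 3SA muscle and 16 3SA liver peaks. The gene span with 20 kb in place of the annotated name, at least 1 shared base, centres within 1000 bp, TNAAGGTCA and the worst rank for ties left every count within 1.5 times.

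Of 54 alternative values of single best ranks, 42 stayed within 1.5 times. Within 20 kb of an annotated TSS, the best peak named *Ppargc1a* was in the top 66.4% of WT and 23.7% of 3SA muscle. That named *Esrrg* was in the top 24.6% and 38.7%. Intervals named *Mir6417* within 20 kb of the RefSeq start of *Ppargc1a* were not counted. The best of them was in the top 40.2% of WT and 11% of 3SA muscle. Depth is unknown, so an absent peak may be one that was not detectable.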
